A study of Mus musculus with 14 samples.

Results

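The mitochondrial respiratory chain and ATP synthase are built from subunits encoded in the nucleus and a small set encoded in mitochondrial DNA. The nuclear-encoded subunits described here were taken by gene name from a table of transcript levels. Complex I names were Ndufa, Ndufb, Ndufc, Ndufs or Ndufv followed by a number, and complex II names Sdha to Sdhd. Names starting with Uqcr were taken for complex III and those starting with Atp5 for complex V, ATP synthase. For complex IV, cytochrome c oxidase, they were Cox4 to Cox8 followed by a, b or c. Of 102 rows that matched, 13 with pseudogene names were left out, and the remaining 89 rows gave 88 genes out of 54955, since Atp5o had 2 rows that were summed. They comprised 42 genes named for complex I, 4 for complex II, 8 for complex III, 17 for complex IV and 17 for complex V. Cox6a2, Cox7a1 and Cox8b, the isoforms of 3 cytochrome c oxidase subunits known from heart and skeletal muscle, were kept apart from the other 85. The name rule does not take every subunit: Cox4i1, Cox4i2, Ndufab1 and Cyc1 lie outside it. It also takes Ndufa4, which carries a complex I name but is known as a subunit of complex IV, and Cox7a2l, known as a factor of supercomplexes.

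RNA was sequenced from adipose tissue of C57BL/6 mice at 21 weeks of age. The 7 KO-labelled libraries came from KO-Dectin1 mice (replicates 1 to 7) and the 7 WT libraries from wild-type mice (replicates 3 to 9). Dectin-1, encoded by Clec7a, is a β-glucan receptor of myeloid cells; the labels give neither the construction of the allele, nor the cells in which it acts, nor the fat depot, and no group had any further treatment. Values are in TPM, the share of a library's transcripts that a gene takes, corrected for gene length and scaled to a fixed total, so levels can be compared between genes, while the number of reads behind them is unknown.

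Complexes I to IV pass electrons from NADH and succinate to oxygen and, with the exception of complex II, pump protons across the inner mitochondrial membrane; complex V uses the proton gradient to make ATP. In white adipose tissue this machinery serves ATP supply and fatty acid handling, and in brown adipose tissue Ucp1 uncouples the gradient for heat. Several complex IV subunits exist as a form present in most tissues and a form of contractile muscle, and in rodents Cox7a1 and Cox8b are also used as marker genes of brown adipocytes.

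Promoter windows are shown for complex IV isoforms because their levels are compared below. The 250 bases before the annotated start are given for 2 pairs, Cox7a1 with Cox7a2 and Cox8b with Cox8a, the first of each a form of muscle and brown fat and the other widely expressed, and for Cox6a1, the widely expressed partner of Cox6a2, as in RefSeq on GRCm38.p6, from 5′ to 3′ on the strand of the gene. The positions are chr5:115348959-115349208 on the minus strand for Cox6a1, chr19:7217617-7217866 on the minus strand for Cox8a, chr7:30183921-30184170 on the plus strand for Cox7a1, chr9:79759854-79760103 on the minus strand for Cox7a2 and chr7:140900447-140900696 on the minus strand for Cox8b. Capitals mark letters of a searched motif on either strand.
Cox6a1: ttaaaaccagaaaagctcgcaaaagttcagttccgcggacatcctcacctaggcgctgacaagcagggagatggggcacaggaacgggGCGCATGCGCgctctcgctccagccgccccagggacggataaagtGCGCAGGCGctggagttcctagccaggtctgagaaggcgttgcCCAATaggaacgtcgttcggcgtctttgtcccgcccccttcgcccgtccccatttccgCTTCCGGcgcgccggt
Cox8a: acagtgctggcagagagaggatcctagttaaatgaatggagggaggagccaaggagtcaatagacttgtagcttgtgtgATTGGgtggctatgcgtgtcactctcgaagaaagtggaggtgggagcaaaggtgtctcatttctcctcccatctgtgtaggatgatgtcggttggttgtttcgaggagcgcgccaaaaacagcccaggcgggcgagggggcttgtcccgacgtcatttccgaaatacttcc
Cox7a1: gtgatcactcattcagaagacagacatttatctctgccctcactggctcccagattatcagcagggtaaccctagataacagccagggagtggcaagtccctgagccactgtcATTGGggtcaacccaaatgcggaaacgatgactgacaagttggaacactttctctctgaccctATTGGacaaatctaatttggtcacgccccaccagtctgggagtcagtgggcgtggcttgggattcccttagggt
Cox7a2: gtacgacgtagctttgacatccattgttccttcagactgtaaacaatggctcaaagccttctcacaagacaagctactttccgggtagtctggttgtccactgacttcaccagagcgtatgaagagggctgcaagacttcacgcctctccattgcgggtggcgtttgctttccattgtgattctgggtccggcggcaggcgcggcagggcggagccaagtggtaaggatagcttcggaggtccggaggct
Cox8b: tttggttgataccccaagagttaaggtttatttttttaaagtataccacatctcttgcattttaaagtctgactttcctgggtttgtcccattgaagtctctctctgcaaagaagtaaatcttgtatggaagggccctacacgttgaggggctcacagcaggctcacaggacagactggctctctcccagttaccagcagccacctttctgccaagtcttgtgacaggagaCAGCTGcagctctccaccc
In Cox6a1 the capitals are, in order, an NRF1 motif (GCGCANGCG) read on both strands and so overlapping itself, 162 bases before the start on the plus strand and 161 on the minus strand, a further NRF1 motif at 117, a CCAAT box at 74 and the core of ETS factors such as GABP (CCGGAAG) at 16. NRF1 and GABP are known as activators of genes of the respiratory chain. Cox8a had a CCAAT box 171 bases before the start. Cox7a1 had CCAAT boxes at 137 and 74, Cox7a2 had none of the searched motifs in this window, and Cox8b had the E-box of muscle factors (CAGCTG) at 19. Cox6a2 is named only.

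Over the full windows of 300 bases, 250 before and 50 after the start, 66 of the 79 other subunits tested below were matched to the RefSeq table. The match was by gene ID, or by symbol where no ID was found. The NRF1 motif stood in 30.3% of these 66, against 7.03% of 27025 genes in the table. The ETS core stood in 25.8% of the subunits and 9.93% of the genes, the YY1 core (AAGATGGC) in 15.2% and 3.19%, and the ERR motif (AAGGTCA) in 12.1% and 5.38%. CCAAT was about as common in the subunits, at 42.4%, as in all genes, at 41.1%. The TATA box (TATAAA) stood in 9.09% of subunits and 15.7% of genes, the E-box in 7.58% and 18.3%, and the MEF2 motif (CTAAAAATA) in 0 of the subunits and 0.588% of the genes. Both strands were searched for each motif and matches of different motifs may overlap; the median GC content of the windows was 58.4% for the subunits and 52.8% for all genes, and its part in these shares was not tested. The windows that held the NRF1 motif included those of Sdha, Sdhd, Uqcrc1, Atp5c1, Atp5o, Ndufa5 and Ndufs6. Beyond the motifs marked above, the full window of Cox8a held the ETS core. That of Cox8b held the letters TATAAA on 1 of the strands, outside the 250 bases shown. They lie after the start, so they do not mark a TATA box before it.

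Facts of the whole series that bear on these genes are few. Clec7a averaged 6.94 ± 2.61 TPM in KO-labelled and 10.99 ± 5.99 TPM in WT libraries (SD, n = 7 each; limma adjusted p = 0.59), and the groups overlapped, so the targeted gene does not check the labels at the level of a whole gene. Nnt, the inner membrane enzyme that uses the proton gradient to make NADPH, was 1 of the 3 genes called in the comparison below. It averaged 6.00 ± 0.85 TPM in KO-labelled and 15.2 ± 4.1 TPM in WT libraries, without overlap (log2 fold change -1.18 ± 0.17 SE, limma adjusted p = 0.031). That level is the sum of 2 rows, of which the 1 tested as deposited did not pass (limma adjusted p = 0.21); over 31 other alternatives the fold change stayed below 0, the adjusted p ranged over 0.0015 to 1.00, and 14 called it. Nnt is known to carry a deletion in the C57BL/6J substrain, and the labels name C57BL/6 without a substrain. Adipoq, the adiponectin gene and a defining adipocyte marker, was at 683 TPM or more in every library. Of the heart markers checked, Myh6, Nppa and Myl7 were near 0, at 0.54 TPM or less. Tnni3, also a heart marker, was low but above 0 in every library, at 0.15 to 4.90 TPM. Skeletal muscle and lymphocyte transcripts varied widely: Mylpf, a fast muscle myosin light chain, ranged over 6.18 to 716 TPM in KO-labelled and 3.75 to 2153 TPM in WT libraries. Cd79a, a B-cell receptor component, averaged 418 ± 252 TPM in KO-labelled and 323 ± 237 TPM in WT libraries but was at 1.52 TPM or less in KO replicate 7 and WT replicates 4 and 7. In bulk tissue, fewer cells of a type and less RNA per cell cannot be told apart. The series counts 7 mice per genotype, 1 for each library, and p-values measure the spread between these mice.

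Transcripts of the subunits were abundant in both groups. The sum over the other subunits was 27327 ± 6622 TPM in KO-labelled and 29314 ± 4145 TPM in WT libraries (SD, n = 7 each), which is 2.73 ± 0.66% of all TPM in KO-labelled and 2.93 ± 0.41% in WT libraries. The 7 KO-labelled libraries spanned 19988 to 36634 TPM with a median of 24492, and the 7 WT libraries 25346 to 35634 with a median of 28892. KO replicates 1, 4, 5 and 6 lay below every WT library and KO replicate 7 above every one, so the WT range lay inside the KO-labelled one. In level per length, Atp5b of ATP synthase and Cox6a1 and Cox8a of complex IV led. Atp5b, the β subunit that carries the catalytic site, averaged 1577 TPM over 14 libraries, Cox6a1 1509 TPM and Cox8a 1288 TPM. The median subunit stood at 271 TPM, and the lowest tested was Cox6b2, known as a testis form, at 8.62 TPM. Ndufa11b, Ndufb11b, Ndufs6b, Cox6c2, Cox7b2 and Cox8c were listed at 0 in every library. These 6 were the only members that missed the filter of 1 TPM in at least 7 libraries, which left 82 tested genes, 79 of them other than the muscle isoforms.

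None of the 82 tested members differed between KO-labelled and WT libraries at an adjusted p under 0.05 (limma-trend on log2(TPM + 1), 2-sided, Benjamini-Hochberg over 14719 genes). In the same fit 0.0204% of all genes passed, 3 in number. At an unadjusted p under 0.05, 1 member had a lower value in the KO-labelled libraries and 0 a higher one, where 6.74% of all genes were lower and 4.67% higher at that level. For 0 members were the groups without overlap, against 0.319% of all genes. The smallest adjusted p of any member was 0.37, for Atp5d.

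The estimates for the other subunits were small and mostly below 0. Of 79, 59 had a lower and 20 a higher estimate in the KO-labelled libraries, with a median log2 fold change of -0.13 and a range of -0.42 for Cox6a1 to 0.25 for Atp5md. Over all 14719 genes, 45.4% had a lower estimate and the median was 0.04. This direction turned round with quantile normalization of the libraries, under which 31 of 79 were lower (median 0.05), and with an adipocyte marker score as a covariate, under which 26 of 79 were lower (median 0.06). It rested in part on single libraries: the median was -0.05 without KO replicate 4 and also -0.05 without KO replicate 5, and -0.18 without KO replicate 7. The adipocyte marker list moved with it: 17 of its 20 genes had a lower estimate, with a median of -0.55 and 0 called, and its summed level ranged over 19019 to 84923 TPM in KO-labelled and 46502 to 89248 TPM in WT libraries. KO replicates 4 and 5 had the lowest adipocyte scores, 8.02 and 8.31 (mean log2(TPM + 1)), and KO replicate 7 the highest, 10.16. Other libraries did not follow this order. WT replicate 6, where the median subunit stood at 353 TPM, had a score of 9.41. WT replicate 7, where it stood at 282 TPM, had one of 10.02. The part of adipocyte content in the estimates was not tested.

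**Figure D1:**
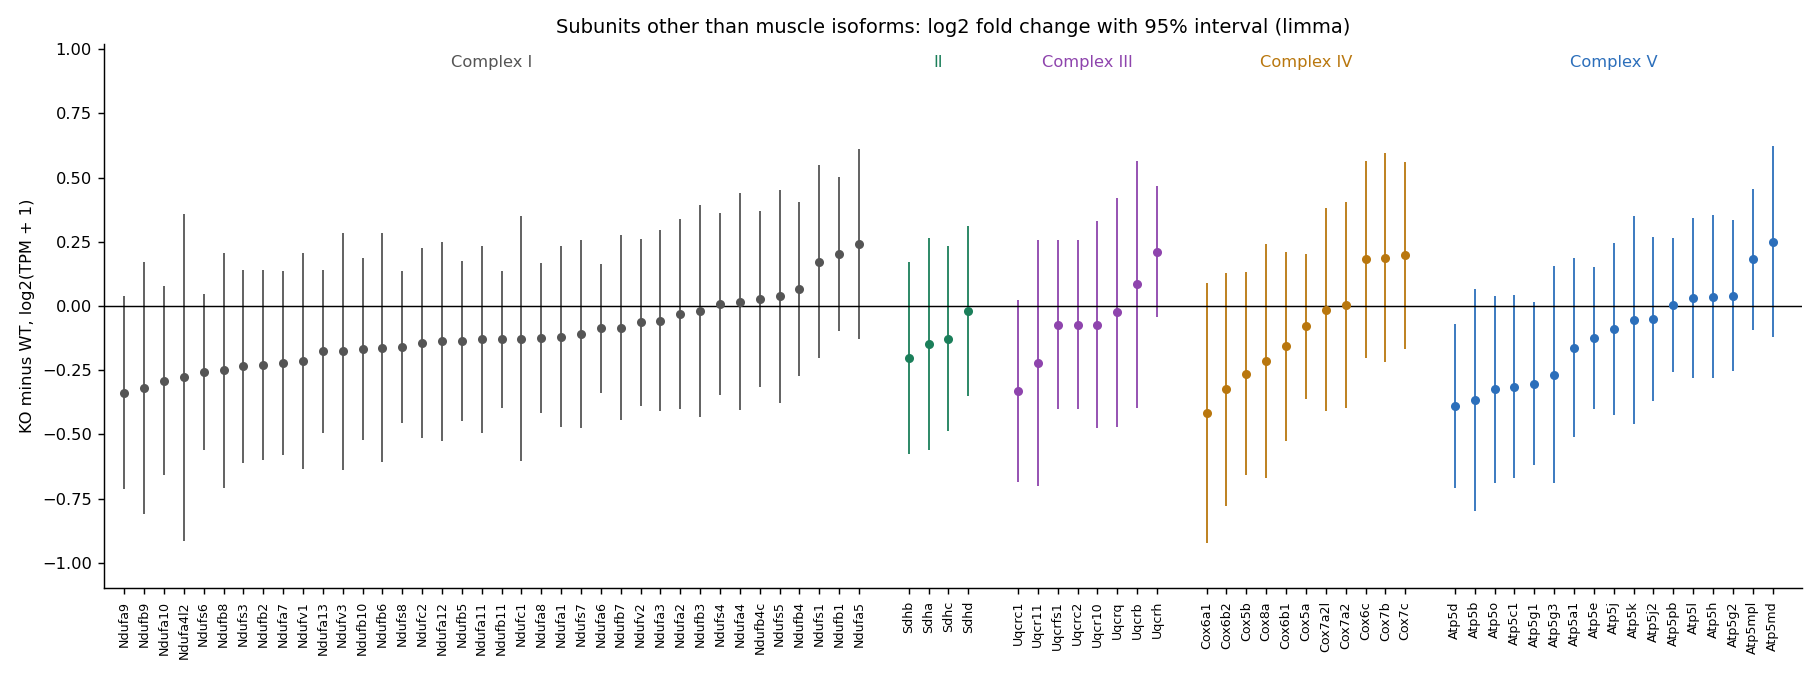
Log2 fold change of 78 of the 79 tested subunits other than the muscle isoforms, KO-labelled minus WT on the log2(TPM + 1) scale, ordered within each complex; points are limma estimates and lines 95% intervals. Of the 78 estimates drawn, 58 lie below 0, and the interval of Atp5d is the only one that leaves out 0.

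Complex I is the NADH dehydrogenase and the largest complex of the chain. Of its 39 tested members, 31 had a lower estimate in the KO-labelled libraries (median -0.13). Ndufa9, a supernumerary subunit near the quinone site, had the smallest p of the complex. It ranged over 74.5 to 148 TPM (median 101) in KO-labelled and 110 to 178 TPM (median 131) in WT libraries. The groups overlapped in 3 KO-labelled libraries, and the log2 fold change was -0.34 ± 0.18 (SE; limma adjusted p = 0.47). Ndufa10, an accessory subunit of the membrane arm, averaged 105 ± 28 TPM in KO-labelled and 127 ± 25 TPM in WT libraries (log2 fold change -0.29, limma adjusted p = 0.53). Ndufs6, a zinc-binding accessory subunit, averaged 158 ± 30 TPM in KO-labelled and 188 ± 32 TPM in WT libraries.

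Core subunits of complex I did not share 1 direction. Ndufv1, which binds NADH, averaged 120 ± 40 TPM in KO-labelled and 134 ± 20 TPM in WT libraries (log2 fold change -0.21). Ndufs1, the iron-sulfur subunit of the electron input arm, stood at 48.5 to 102 TPM (median 64.3) in KO-labelled and 47.8 to 71.4 TPM (median 61.1) in WT libraries, with an estimate of 0.17. The low ends of both groups met, and KO replicates 2, 3 and 7 lay above every WT library. The other positive estimates included Ndufa5 (0.24) and Ndufb1 (0.20). Ndufa4 and its hypoxia-linked paralog Ndufa4l2 differed in level rather than between groups: Ndufa4 averaged 626 ± 186 TPM in KO-labelled and 607 ± 116 TPM in WT libraries, and Ndufa4l2 29.1 ± 13.4 TPM in KO-labelled and 35.2 ± 15.8 TPM in WT libraries. Ndufa4l2 had the widest spread of the 79, with a highest library 5.01 times the lowest, and Ndufa6 the narrowest, 1.44 times. Ndufb4 averaged 39.4 TPM and its near-identical copy Ndufb4c 299 TPM over all libraries, and the split of reads between them is uncertain.

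Complex II, succinate dehydrogenase, also works in the citric acid cycle and has no mitochondrially encoded subunit. All 4 members had a lower estimate, between -0.20 and -0.02, with the values as deposited. Sdha, the flavoprotein that oxidises succinate, ranged over 144 to 318 TPM (median 216) in KO-labelled and 185 to 277 TPM (median 241) in WT libraries. KO replicates 1, 4 and 5 lay below every WT library and KO replicates 2, 3 and 7 above every one. Sdhb, the iron-sulfur subunit, was at 161 to 212 TPM in KO replicates 1, 4, 5 and 6, below the lowest WT value of 218 TPM. The summed level of the complex was 776 ± 218 TPM in KO-labelled and 829 ± 70 TPM in WT libraries.

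Complex III, which oxidises ubiquinol, had 6 of 8 members with a lower estimate (median -0.07). This median was 0.01 without KO replicate 4, 0.0015 without KO replicate 5 and -0.13 to -0.03 without any other single library. Uqcrc1, a core subunit, ranged over 158 to 311 TPM (median 217) in KO-labelled and 229 to 353 TPM (median 263) in WT libraries. Its log2 fold change was -0.33 ± 0.17 (SE; limma adjusted p = 0.46), and KO replicates 2, 3 and 7 lay within the WT range. Uqcrh, the hinge protein that contacts cytochrome c1, had its estimate on the other side. It ranged over 597 to 832 TPM (median 659) in KO-labelled and 544 to 717 TPM (median 577) in WT libraries (log2 fold change 0.21 ± 0.12 SE, limma adjusted p = 0.51). Uqcrfs1, the Rieske iron-sulfur protein, averaged 163 ± 41 TPM in KO-labelled and 168 ± 21 TPM in WT libraries, and Uqcr11, a small accessory subunit, 666 ± 215 TPM in KO-labelled and 765 ± 211 TPM in WT libraries.

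Among the 11 tested complex IV subunits other than the muscle isoforms, 7 had a lower estimate (median -0.08). Cox6a1 had the lowest estimate of all 79 and ranged over 786 to 1916 TPM (median 1168) in KO-labelled and 1305 to 2756 TPM (median 1437) in WT libraries. KO replicates 1, 4, 5 and 6 lay below every WT library and the other 3 within the WT range (log2 fold change -0.42 ± 0.24 SE, limma adjusted p = 0.52). Cox5b, a zinc-binding subunit, averaged 390 ± 98 TPM in KO-labelled and 465 ± 109 TPM in WT libraries (log2 fold change -0.26). The small membrane subunits Cox6c, Cox7b and Cox7c had positive estimates of 0.18, 0.19 and 0.20, and each was lowest in WT replicate 3 and highest in KO replicate 7. Cox7a2l went against the order of the libraries seen in the others: it was highest in KO replicate 4, at 383 TPM, where 34 other subunits were lowest, and lowest in WT replicate 4, at 186 TPM. KO replicate 7, WT replicate 4 and WT replicate 7, poor in B-cell transcripts, held 191, 186 and 205 TPM of Cox7a2l, 3 of its 4 lowest values. Its group means were 270 ± 65 TPM in KO-labelled and 272 ± 64 TPM in WT libraries.

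In complex V, 11 of 17 members had a lower estimate (median -0.09). Atp5d, the δ subunit of the central stalk, ranged over 249 to 410 TPM (median 340.3) in KO-labelled and 384 to 584 TPM (median 438) in WT libraries. KO replicates 2, 3 and 7 overlapped the lower WT libraries, and the other 4 lay below them all. Its log2 fold change was -0.39 ± 0.15 (SE), with an unadjusted p of 0.020 and an adjusted p of 0.37 (limma). Atp5b ranged over 909 to 2039 TPM (median 1318) in KO-labelled and 1576 to 2008 TPM (median 1698) in WT libraries. For this gene KO replicates 1, 4, 5 and 6 lay below every WT library and KO replicate 7 above every one (log2 fold change -0.37 ± 0.20 SE, limma adjusted p = 0.50). Atp5a1, the partner of Atp5b in the catalytic head, averaged 457 ± 120 TPM in KO-labelled and 498 ± 47 TPM in WT libraries. Atp5c1, the γ subunit, and Atp5o, of the peripheral stalk, had estimates of -0.31 and -0.32 (limma adjusted p = 0.48 each). The highest estimates were those of Atp5md, 0.25, and Atp5mpl, 0.18, small membrane subunits.

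Subunit c, which forms the rotor ring, is encoded by Atp5g1, Atp5g2 and Atp5g3, whose mature proteins are identical. Atp5g3 supplied most of it, with 777 ± 241 TPM in KO-labelled and 907 ± 154 TPM in WT libraries, and Atp5g2 least, with 23.7 ± 5.4 TPM in KO-labelled and 22.7 ± 2.9 TPM in WT libraries. Atp5g1 averaged 143 ± 22 TPM in KO-labelled and 178 ± 42 TPM in WT libraries (log2 fold change -0.30 ± 0.15 SE, limma adjusted p = 0.45). The table lists Atp5g1 at 4660 bases and Atp5g3 at 723, which lowers the TPM of Atp5g1 if its listed length exceeds that of the transcript made. As a share of the 3 genes, Atp5g1 stood at 16.1 ± 4.8% in KO-labelled and 16.0 ± 2.0% in WT libraries.

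The libraries of a group differed widely among themselves. The summed level of each complex overlapped between the groups. Complex I summed to 8833 ± 2162 TPM in KO-labelled and 9478 ± 1590 TPM in WT libraries, and complex III to 3477 ± 885 TPM in KO-labelled and 3531 ± 567 TPM in WT libraries. Complex IV without the muscle isoforms summed to 6051 ± 1546 TPM in KO-labelled and 6565 ± 1087 TPM in WT libraries, and complex V to 8190 ± 1850 TPM in KO-labelled and 8910 ± 914 TPM in WT libraries. The order of the libraries was much alike across complexes, with KO replicates 4 and 5 at the low end and KO replicate 7, WT replicate 6 or both at the high end, although in complex II WT replicate 6 stood in the middle. The KO-labelled libraries were the more spread: the SD was larger in KO-labelled than in WT libraries for 61 of 79 subunits (77.2%), against 37.8% of all genes tested, as a description with no test.

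**Figure D2:**
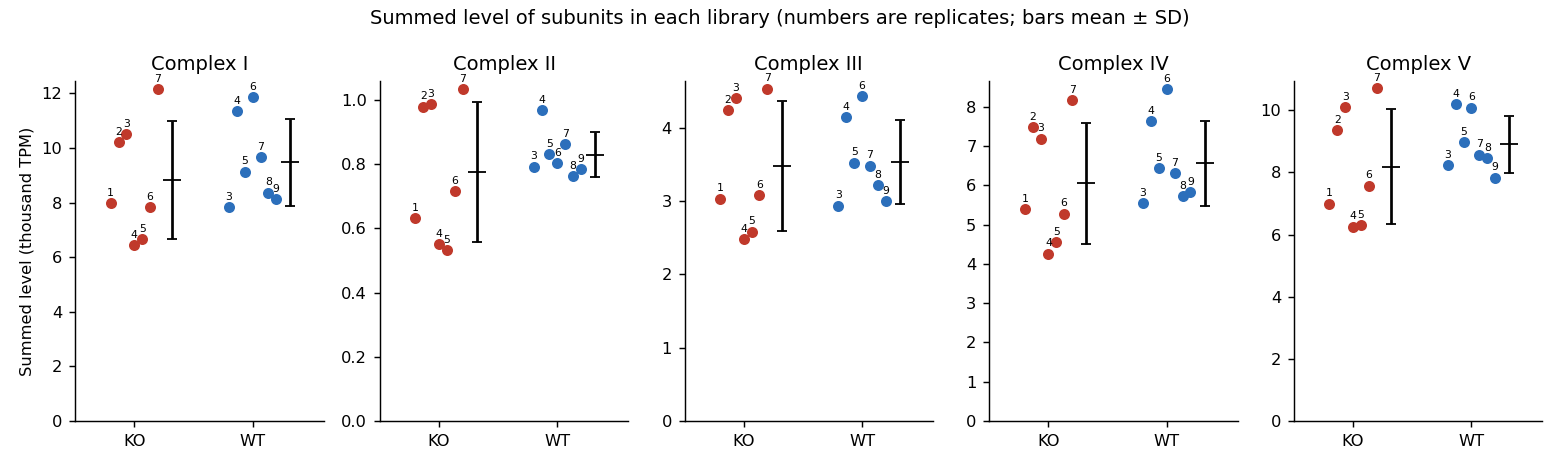
Summed TPM of the subunits of each complex in every library, muscle isoforms left out; numbers are replicate numbers, bars the mean ± SD of 7 libraries. KO replicates 4 and 5 are the 2 lowest points of each complex, and the groups overlap in all 5 complexes.

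Of the 79 subunits, 29 were highest in KO replicate 7 and 28 in WT replicate 6, while 34 were lowest in KO replicate 4, 23 in KO replicate 5 and 13 in WT replicate 3. The median subunit ranged over 197 TPM in KO replicate 4 to 356 TPM in KO replicate 7, and WT libraries ran from 241 to 353 TPM. For a single subunit the highest library was a median of 2.08 times the lowest. Over 11427 genes at 1 TPM or more in every library it was 2.78 times, but these genes were not matched to the subunits in level. KO replicate 7 and WT replicates 4 and 7, which were poor in B-cell transcripts, had subunit medians of 282 to 356 TPM, and the other 11 libraries 197 to 353 TPM.

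Base composition differed between the subunits highest in KO replicate 7 and those highest in WT replicate 6. The 29 subunits highest in KO replicate 7 had a median transcript GC content of 48.5%, and the 28 highest in WT replicate 6 one of 54.7%. The 7 highest in KO replicate 3 had 53.9% and the 11 highest in WT replicate 4 had 51.0%, where the median of all 79 was 51.0%. The 13 lowest in WT replicate 3 had 47.2%, the 34 lowest in KO replicate 4 had 51.3% and the 23 lowest in KO replicate 5 had 53.7%. Across the 79 subunits, GC content and log2 fold change had a Pearson r of -0.40 and a Spearman rho of -0.37, against -0.14 and -0.16 over 14285 genes. These are correlations across genes, which are not independent replicates and share the same 14 libraries. Cox7c, at 38.4% the lowest in GC, had an estimate of 0.20 and Cox6a1, at 58.8%, one of -0.42, while Atp5g2, at 63.3% the highest, had 0.04. The part of GC content in the fold changes was not tested.

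**Figure D3:**
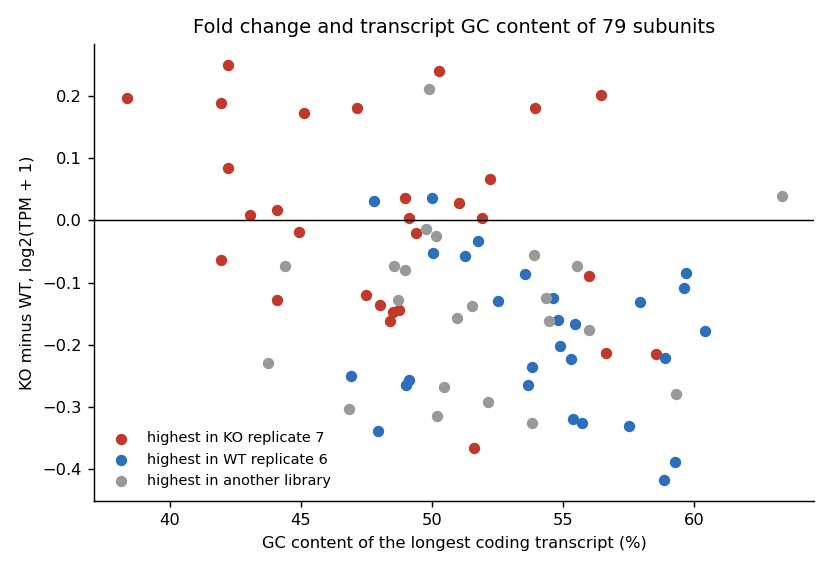
Log2 fold change (KO-labelled minus WT, log2(TPM + 1)) of 79 subunits against the GC content of the longest coding transcript in percent; colours give the library in which the subunit was highest. Subunits highest in WT replicate 6 lie further right (median 54.7%) than those highest in KO replicate 7 (median 48.5%).

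The mitochondrially encoded partners had estimates on the other side of 0. Of 13 subunit genes of the mitochondrial genome, 11 had a higher estimate in the KO-labelled libraries (median 0.44), 0 were called, and 2 were higher at an unadjusted p under 0.05. mt-Cytb, the cytochrome b of complex III, averaged 13788 ± 3866 TPM in KO-labelled and 8994 ± 3591 TPM in WT libraries (log2 fold change 0.67, limma adjusted p = 0.40). Their sum was 117705 ± 29474 TPM in KO-labelled and 87758 ± 33641 TPM in WT libraries, several times that of all nuclear-encoded subunits. mt-Atp8 held the largest part of it, with 42092 ± 10985 TPM in KO-labelled and 29501 ± 13719 TPM in WT libraries. mt-Atp6 averaged only 997 ± 337 TPM in KO-labelled and 826 ± 480 TPM in WT libraries. The sum and the ratio to it thus rest in large part on mt-Atp8, and the accuracy of its level was not tested. The nuclear sum came to 24.4 ± 9.1% of the mitochondrial sum in KO-labelled and 37.7 ± 14.2% in WT libraries, and the groups overlapped, at 16.5 to 43.2% in KO-labelled and 23.2 to 56.8% in WT libraries. Because TPM is a share, a larger mitochondrial total lowers every nuclear value. With the other genes rescaled to a fixed total, 54 of 79 subunits had a lower estimate, with a median of -0.08. The median over all genes tested was 0.08 with this rescaling. The part of the mitochondrial total in the estimates was not tested.

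Of the 6 measured chain genes outside the name rule, 4 had a lower estimate (median -0.18). Cox4i1, the widely expressed form of a complex IV subunit, averaged 1380 ± 317 TPM in KO-labelled and 1588 ± 459 TPM in WT libraries, and its lung- and hypoxia-linked form Cox4i2 17.1 ± 3.3 TPM in KO-labelled and 24.2 ± 9.5 TPM in WT libraries (log2 fold change -0.42, limma adjusted p = 0.46). Cycs, cytochrome c, and Atpif1, the inhibitor of ATP synthase, had estimates of 0.23 and 0.22. The lists of factors that build the complexes were split evenly. Of 15 assembly factors of complex I, 8 were lower and 7 higher (median -0.02), and of 33 of complexes II to V, 17 were lower and 16 higher (median -0.01). Coa7, an assembly factor of complex IV, had the smallest p of these lists, at 7.15 ± 1.89 TPM in KO-labelled and 13.1 ± 4.2 TPM in WT libraries (log2 fold change -0.77, limma adjusted p = 0.22). Of 45 mitochondrial ribosomal proteins, 31 had a lower estimate (median -0.09). Regulators of mitochondrial biogenesis leaned the other way, with 9 of 13 higher (median 0.12). Among them Ppargc1b, a coactivator of respiratory genes, averaged 1.94 ± 0.52 TPM in KO-labelled and 1.26 ± 0.43 TPM in WT libraries (log2 fold change 0.39, limma adjusted p = 0.41), and Esrra, a nuclear receptor that acts with it, 36.1 ± 6.0 TPM in KO-labelled and 35.3 ± 5.1 TPM in WT libraries. In all of these lists 0 genes were called.

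The muscle isoforms differed from each other in range. For Cox6a2 the highest library was 311 times the lowest, against 3.51 times for its partner Cox6a1. For Cox7a1 it was 13.6 times, against 2.43 times for Cox7a2. Cox8b had a much smaller ratio, 3.59 times, against 2.64 times for Cox8a. Cox6a2 ranged over 0.57 to 87.0 TPM (median 5.08) in KO-labelled and 1.32 to 177 TPM (median 25.3) in WT libraries. High values stood in KO replicate 6 and in WT replicates 3, 4 and 7, and WT replicates 4 and 7 lay above every KO-labelled library (log2 fold change -1.28 ± 1.03 SE, limma adjusted p = 0.64). With 1 library left out the estimate ranged over -1.83 (without WT replicate 9) to -0.79 (without WT replicate 4), and it was 0.16 without the 3 libraries poor in B-cell transcripts. Cox7a1 ranged over 8.18 to 53.3 TPM (median 18.5) in KO-labelled and 13.4 to 112 TPM (median 24.5) in WT libraries, with the highest values in KO replicate 6 and WT replicate 4 (log2 fold change -0.39 ± 0.46 SE, limma adjusted p = 0.72). Its estimate was -0.07 without WT replicate 4, -0.18 without KO replicate 5 and -0.60 without KO replicate 6. It turned to 0.03 with the muscle score as a covariate, 0.16 without the 3 libraries poor in B-cell transcripts and 0.08 without those over 100 TPM of Mylpf, a level chosen after seeing the data. Cox8b ranged over 144 to 371 TPM (median 275) in KO-labelled and 125 to 449 TPM (median 245) in WT libraries (log2 fold change 0.10 ± 0.28 SE, limma adjusted p = 0.89). For none of the 3 did the groups separate.

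Cox6a2 followed skeletal muscle transcripts. Against the muscle score, the mean log2(TPM + 1) of 22 marker genes, its log2(TPM + 1) had r = 0.957 and rho = 0.916 over the 14 libraries (permutation p adjusted over 6 relations 6e-05 and 0.00012). Without the 2 libraries farthest from the median score, r was 0.929 (permutation p adjusted 6e-05), and it was 0.926 within the KO-labelled and 0.972 within the WT libraries (exact permutation p adjusted 0.013 and 0.0048). For Cox7a1 the same relation gave r = 0.856 and rho = 0.912 (permutation p adjusted 0.00015 and 0.00012), 0.770 without the 2 farthest libraries (permutation p adjusted 0.0076), and 0.826 within KO-labelled and 0.861 within WT libraries (exact permutation p adjusted 0.036 and 0.025). Cox8b did not pass, with r = 0.341 and rho = 0.376 (permutation p adjusted 0.28 and 0.22), and r = 0.037 without the 2 farthest libraries (permutation p adjusted 0.91). The markers of this score had a lower estimate in the KO-labelled libraries for 21 of 21 tested genes (median -1.53), with 0 called. Their summed level ranged over 120.3 to 11167 TPM in KO-labelled and 143 to 34129 TPM in WT libraries. Muscle scores ran without a wide gap, the largest between neighbours being 1.22 of a range of 7.67. A separate list of 14 heart and slow muscle genes, low throughout, went the other way. Of its 3 tested genes, 3 had a higher estimate in the KO-labelled libraries (median 0.45), with 0 called. It summed to 16.3 ± 13.4 TPM in KO-labelled and 10.5 ± 5.0 TPM in WT libraries.

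**Figure D4:**
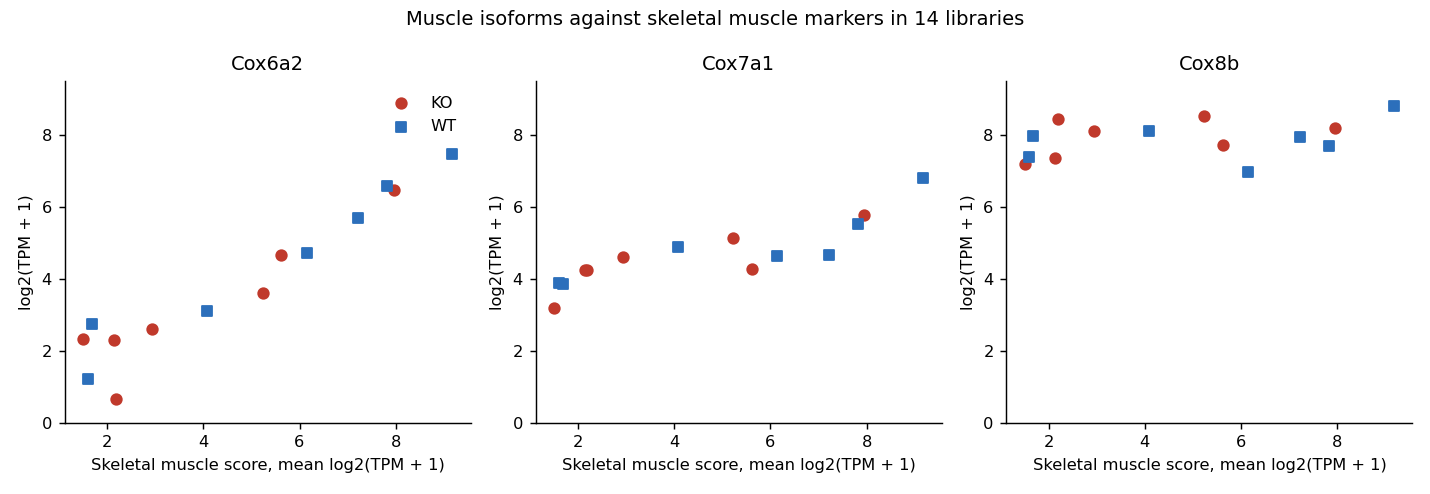
Log2(TPM + 1) of Cox6a2, Cox7a1 and Cox8b against the skeletal muscle score (mean log2(TPM + 1) of 22 markers) in 14 libraries, KO-labelled as circles and WT as squares. Cox6a2 shows no climb at scores up to 2.94, where it lies at 0.57 to 5.77 TPM, and climbs at higher scores (r = 0.957). Cox7a1 climbs less steeply (r = 0.856), and Cox8b lies high at every score (r = 0.341).

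As a description, the libraries are given on either side of 100 TPM of Mylpf. In the 8 libraries with Mylpf under 100 TPM, 5 KO-labelled and 3 WT, Cox6a2 was at 0.57 to 11.2 TPM and Cox7a1 at 8.18 to 34.2 TPM, while Cox8b was at 144 to 371 TPM. In the 6 with more Mylpf, 2 KO-labelled and 4 WT, Cox6a2 was at 24.4 to 177 TPM, Cox7a1 at 18.5 to 112 TPM and Cox8b at 125 to 449 TPM. The libraries nearest the dividing level were KO replicate 2, with 90.9 TPM of Mylpf and 221 TPM of Ckm, and KO replicate 1, with 115 TPM of Mylpf and 191 TPM of Ckm, so these 2 markers order them differently; they held 11.2 and 24.4 TPM of Cox6a2. KO replicate 7, with 250.1 TPM of summed muscle markers, had 0.57 TPM of Cox6a2 but 350 TPM of Cox8b.

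Brown and beige adipocyte markers were low in general. Ucp1 was at 5.16 TPM or less and Dio2 at 0.13 TPM or less in every library, while Cidea, a lipid droplet protein of brown fat, stood at 25.4 to 118 TPM in KO-labelled and 31.5 to 96.7 TPM in WT libraries. The list of 10 tested markers had 5 lower and 5 higher estimates and a median of -0.01. Against the score of all 14 genes of the list, Cox7a1 had r = 0.685 and rho = 0.653 (permutation p adjusted over 6 relations 0.012 and 0.021), 0.710 without the 2 farthest libraries (permutation p adjusted 0.017), and 0.947 within the KO-labelled but 0.533 within the WT libraries (exact permutation p adjusted 0.013 and 0.33). Cox6a2 had r = 0.633 and rho = 0.675 (permutation p adjusted 0.024 and 0.021), but 0.560 without the 2 farthest libraries (permutation p adjusted 0.081), and 0.667 within KO-labelled and 0.692 within WT libraries (exact permutation p adjusted 0.15 and 0.18). The r of these subsets, with 12 or 7 libraries, was thus close to that over all 14, while the adjusted p was above 0.05 in each. Cox8b had r = 0.253 and rho = 0.310 (permutation p adjusted 0.38 and 0.28), 0.546 without the 2 farthest libraries (permutation p adjusted 0.081), and 0.631 within KO-labelled but -0.096 within WT libraries (exact permutation p adjusted 0.15 and 0.85). The list holds genes that muscle expresses too, such as Fabp3, Cpt1b and Ucp3; Fabp3 was at 24.6 TPM in KO replicate 6 and 24.9 TPM in WT replicate 4, the libraries with the most muscle transcripts in their groups. Slc27a2, another gene of the list, was at 33.97 TPM in WT replicate 8 and 14.33 TPM in KO replicate 6. It was at 5.69 TPM or less in every other library. WT replicate 8 and KO replicate 6 were also the 2 libraries farthest from the median of this score. The parts of muscle and of Slc27a2 in the relations with this score were not tested.

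Set against the paired form of the same subunit, the 3 muscle isoforms ranked differently. Cox6a2 made up 1.68 ± 2.80% of Cox6a1 and Cox6a2 together in KO-labelled and 2.75 ± 2.98% in WT libraries. Cox7a1 made up 8.87 ± 5.19% of Cox7a1 and Cox7a2 in KO-labelled and 11.6 ± 7.5% in WT libraries, reaching 26.8% in WT replicate 4. Cox8b made up 17.6 ± 3.1% of Cox8a and Cox8b in KO-labelled and 14.9 ± 4.3% in WT libraries, between 9.60% and 23.2% in all. The groups overlapped in each share. The partners overlapped between the groups as well: Cox7a2 averaged 263 ± 80 TPM in KO-labelled and 255 ± 41 TPM in WT libraries, and Cox8a 1219 ± 416 TPM in KO-labelled and 1356 ± 213 TPM in WT libraries.

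**Figure D5:**
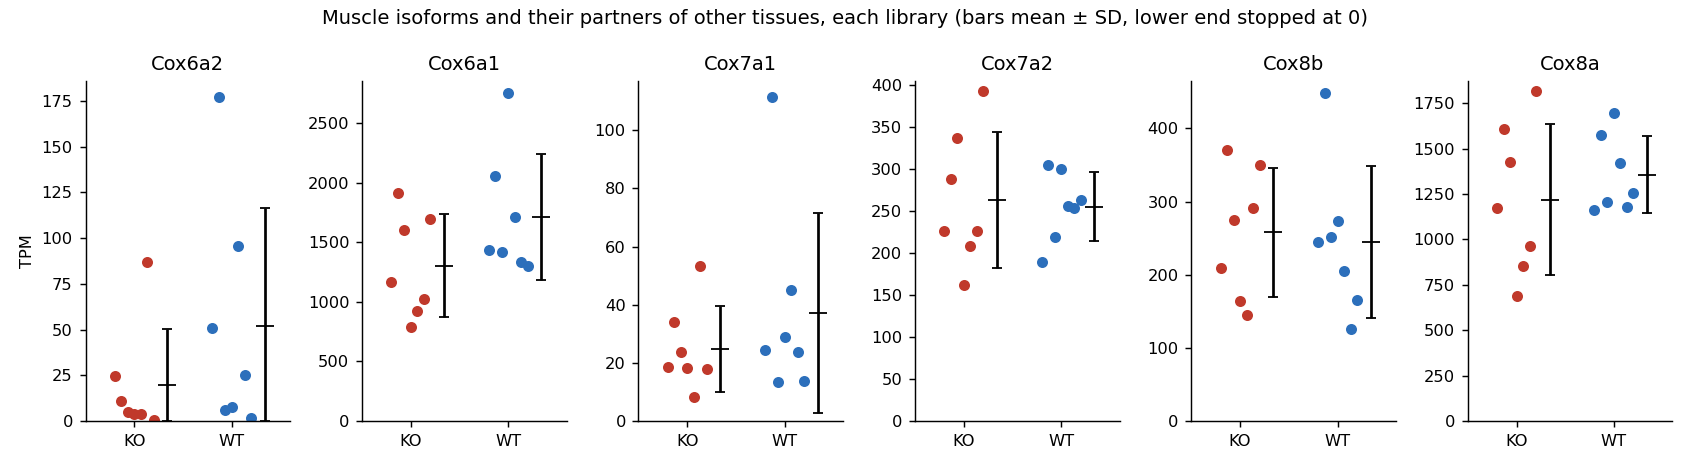
TPM of the muscle isoforms Cox6a2, Cox7a1 and Cox8b, each beside the form of other tissues (Cox6a1, Cox7a2, Cox8a), in 7 KO-labelled and 7 WT libraries; points are libraries and bars the mean ± SD, with the lower end stopped at 0. Cox6a2 and Cox7a1 have a few high libraries in each group, while the other 4 spread about their means.

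Other tissue-restricted forms were low or listed at 0. Cox6b2 averaged 7.46 ± 1.94 TPM in KO-labelled and 9.77 ± 3.11 TPM in WT libraries, which was 0.953 ± 0.267% of the sum with Cox6b1 in KO-labelled and 1.12 ± 0.39% in WT libraries (log2 fold change -0.32, limma adjusted p = 0.57). Cox7b2 and Cox8c, known from testis, were listed at 0 throughout. No testis marker passed the filter, which asks for 1 TPM in at least 7 libraries. Single libraries did hold such transcripts. Tnp1, Prm1 and Prm2 stood at 4.61, 3.57 and 2.85 TPM in KO replicate 6. In KO replicate 1 they stood at 1.83, 1.12 and 2.12 TPM, and Prm1 was at 1.14 TPM in WT replicate 8.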

How the data were processed

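The deposited values are in TPM: each of the authors' library columns sums to the same fixed total over 56552 rows. Bowtie 0.12.2 and the builds mm8 and mm9 are named, without a role, per the submitters' processing notes. What made the TPM values, from which annotation and with which strand setting, was not given in the sources used here. Read depth is unknown, so no counting interval is given, and errors are the spread over libraries. Columns were matched to samples by title.

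Rows of the same name were summed. The 14719 genes that reached 1 TPM in 7 libraries or more entered limma-trend (limma 3.58.1, R 4.3.3, robust prior) on log2(TPM + 1), with no covariate, and p-values were adjusted by Benjamini-Hochberg over all of them; a count model could not be used on TPM. The fold change scale understates changes of low genes. Correlations were tested with 100000 permutations, or exactly within groups, and adjusted over 6 relations (scipy 1.17.1). The fit was tested on simulated data. A list's score is the mean log2(TPM + 1) of its genes.

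The members, the gene lists, the tests and the rule for named genes were chosen with earlier results of these data known. Named were the muscle isoforms with their partners, other tissue-restricted paralogs, core subunits, and in each complex the extremes of level and the 3 smallest p; Cox7a2l's order of libraries and a few further genes were picked after their values were seen. 1 member is counted with the rest but is not reported here. GC content came from GENCODE M21 transcripts, by Ensembl gene ID, and promoters from RefSeq. Replicate numbers 3 to 7 occur in both groups, but the deviations of same-numbered libraries correlated at -0.67 to 0.80, so the numbers were not taken as pairs. The other alternatives were pseudocounts, filters, scalings, covariates, library weights and libraries left out.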

Additional observations from a re-analysis of the deposited data

Results flagged for a closer look

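1 value stood apart from its group among 76 groups of 7 libraries checked. Sdhc, a membrane anchor of complex II, was at 7.73 on the log2(TPM + 1) scale in WT replicate 4, or 212 TPM, with the nearest WT library at 7.34. The gap was 0.581 of the whole WT range. Chance gives such a gap in about 1 of 20 groups.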

How the results depend on the processing

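The number of members called stayed at 0 in all 32 alternative fits; the smallest adjusted p of a member in any of them was 0.092, with library weights. Over all genes, the 3 calls became 26 with a B-cell score as covariate, 7 with an adipocyte score, 823 with library weights, 9 with median-ratio scaling, 19 with quantile normalization, 6 with the genes rescaled without the mitochondrial ones, 1 with no filter and 1 with rows as deposited. They became 0 with a muscle score as covariate, over the shared replicate numbers with or without the replicate block, without the 3 libraries poor in B-cell transcripts, and without the libraries over 100 TPM of Mylpf (chosen after seeing the data), and ranged over 0 to 6 with 1 library left out. The cause of these moves was not tested.

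The replicate block over numbers 3 to 7 gave a median of -0.20 for the other subunits, as did the same libraries without it, and 0 members called. Some estimates turned round. With an adipocyte score as covariate these were Atp5a1 0.0096, Cox5a 0.024, Cox8a 0.053, Ndufa4l2 0.080, Ndufv1 0.040, Sdha 0.10, Sdhc 0.084, Uqcr11 0.024, Uqcrc2 0.11 and Uqcrfs1 0.11. With library weights they were Atp5g2 -0.021, Cox7a2 -0.049, Cox7a2l 0.019 and Ndufa4 -0.038, with median-ratio scaling Atp5g2 -0.0011, Cox7a2 -0.038 and Ndufa4 -0.024, with the muscle score as covariate Cox7a1 0.025, and with quantile normalization Cox5a 0.12, Cox7a2l 0.16, Sdha 0.020, Uqcrc2 0.062 and Uqcrfs1 0.068. Over the shared numbers, with or without the block, they were Cox7a2l 0.045, Cox8b -0.24 and Ndufa4 -0.034, and after rescaling Cox7a2l 0.034. When the 3 libraries poor in B-cell transcripts were left out, they were Atp5g2 -0.076, Cox6a2 0.16, Cox7a1 0.16 and Cox7a2 -0.043, and when those over 100 TPM of Mylpf were, Atp5a1 0.014, Cox7a1 0.084, Sdha 0.026 and Uqcrc2 0.030. With 1 library left out, the estimates that turned round ranged over Cox7a2 -0.10 to 0.11, Cox7a2l -0.10 to 0.063, Ndufa4 -0.089 to 0.11, Atp5g2 -0.047 to 0.098, Cox8b -0.047 to 0.26, Uqcrc2 -0.14 to 0.0051 and Uqcrfs1 -0.17 to 0.0017.

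The brown and beige relations no longer passed with a pseudocount of 0.1 (Cox6a2 r = 0.564, Cox7a1 r = 0.569), nor in 7 libraries alone, within KO-labelled (Cox6a2 0.667) or within WT libraries (Cox6a2 0.692, Cox7a1 0.533), although r for Cox6a2 was no smaller there than over all 14 (0.633), and Cox8b turned round within WT libraries (-0.096); with 1 library left out Cox6a2 ranged over 0.563 to 0.697. The relations of Cox6a2 and Cox7a1 with the muscle score stayed past the threshold in every alternative run.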
